A study of Homo sapiens with 4 samples.

Results

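The ephrin, netrin and Slit guidance genes are 42 human genes that encode the ligands and receptors of 3 axon guidance systems. They were taken by gene symbol from a table of read counts for 55765 symbols, and all 42 were found. The table describes SK-N-BE(2)C, a subclone of the neuroblastoma line SK-N-BE(2), long established in culture and carrying amplified MYCN. The cells received ATRA (all-trans retinoic acid, the acid form of vitamin A) at 10 µM, or its solvent ethanol, for 144 h. Each group had 2 libraries of total RNA depleted of ribosomal RNA, named here ATRA 1 and 2 and ethanol 1 and 2 after the numbers in their titles. Whether both libraries of a group were made from different cultures is not in the labels. The p-values then capture no more than the spread between these samples, and that spread may be technical.

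Ephrins are membrane-bound ligands of the Eph receptor tyrosine kinases: A ephrins are held by a lipid anchor and mostly bind EPHA receptors, and B ephrins span the membrane and mostly bind EPHB receptors. Slits are secreted proteins that repel growing axons through Robo receptors. Netrins attract axons through DCC and repel them through UNC5 receptors, while neogenin (NEO1), a relative of DCC, also binds the repulsive guidance molecules RGMA and RGMB. Sympathetic neurons and their neural crest precursors, the lineage from which neuroblastoma arises, use these systems for migration and axon growth.

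Total counts were between 12850462 and 19883465 per library, and the 42 genes together took between 20851 and 36059 of them. Within both groups, the library numbered 1 had the larger share of mitochondrially encoded ribosomal RNA. That share was 2.49% of counts in ATRA 1 and 5.96% in ethanol 1, against 0.130% in ATRA 2 and 0.0291% in ethanol 2. Differences between ATRA and ethanol are therefore also given within number 1 and within number 2. All 10 neuroblastoma markers on the list used here were detected at a mean of 1 CPM (counts scaled to library size) or more. Of 7 endothelial markers measured, all were under 1 CPM on average, and their sum lay between 0.793 and 2.54 CPM. All 7 markers of cycling cells were lower in both ATRA libraries than in both ethanol libraries, with sums of 378 and 855 CPM against 1287 and 2048 CPM. Of all genes tested, 21.7% were lower without overlap in the same way. None of the 7 markers had an adjusted p under 0.05 (smallest 0.0704, edgeR quasi-likelihood). The part of the difference in cycling markers in the results below was not tested. In these bulk libraries, fewer cells of a type and less RNA per cell cannot be told apart.

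The comparison of ATRA with ethanol asked which guidance genes differed with treatment, and no member passed the main test. That fit left out the title number. Of the 42 genes, 34 passed the filter on low counts, and 0 were called higher and 0 lower (edgeR quasi-likelihood, Benjamini-Hochberg adjusted p under 0.05 over 18900 genes), against 0.545% and 0.153% of all genes tested, or 0.698% in either direction. The smallest adjusted p among the members was 0.0811 (edgeR). At an unadjusted p under 0.05 there were 6 members, 17.6% of those tested, against 15.9% of all genes. These were SLIT2, NEO1, EPHA6 and EPHB3, with higher levels with ATRA (9.43% of all genes), and EPHA8 and ROBO2, with lower levels (6.49%). DESeq2 called 5 of 32 members, with SLIT2, NEO1 and EPHA6 higher and EPHA8 and ROBO2 lower, while it called 5.03% of all genes higher and 2.89% lower. The limma-voom fit called 0 members and 0.265% of all genes. With no filter beyond a single read, edgeR called EPHA6 and NEO1 higher (3.02% of all genes) and EPHA8 and ROBO2 lower (1.86%). With the title number as a block in edgeR, 5 members were called higher and 3 lower (12.3% and 9.38% of all genes). The DESeq2 block called 5 and 2 (8.95% and 7.03%). Fits that left out a library called many more genes, so a call in them is no added support. Without ATRA 1, 3 members were called higher and 2 lower (3.08% and 1.11% of all genes), and without ATRA 2, 2 and 4 (4.05% and 2.92%). Without ethanol 1, 1 was called higher and 1 lower (2.68% and 1.67%), and without ethanol 2, 3 and 2 (3.98% and 1.91%).

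The members that passed the filter had a median log2 fold change of 0.21, against 0.011 for all genes, and 13 of 34 had an absolute log2 fold change over 1, or 38.2% against 18.9%. Their median level was lower than that of all genes tested, 6.60 against 12.4 CPM, and they also differed more between the libraries of 1 group, with a median absolute log2 difference of 0.82 between the ATRA libraries against 0.46 for all genes, and 0.53 against 0.46 between the ethanol libraries.

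**Figure D1:**
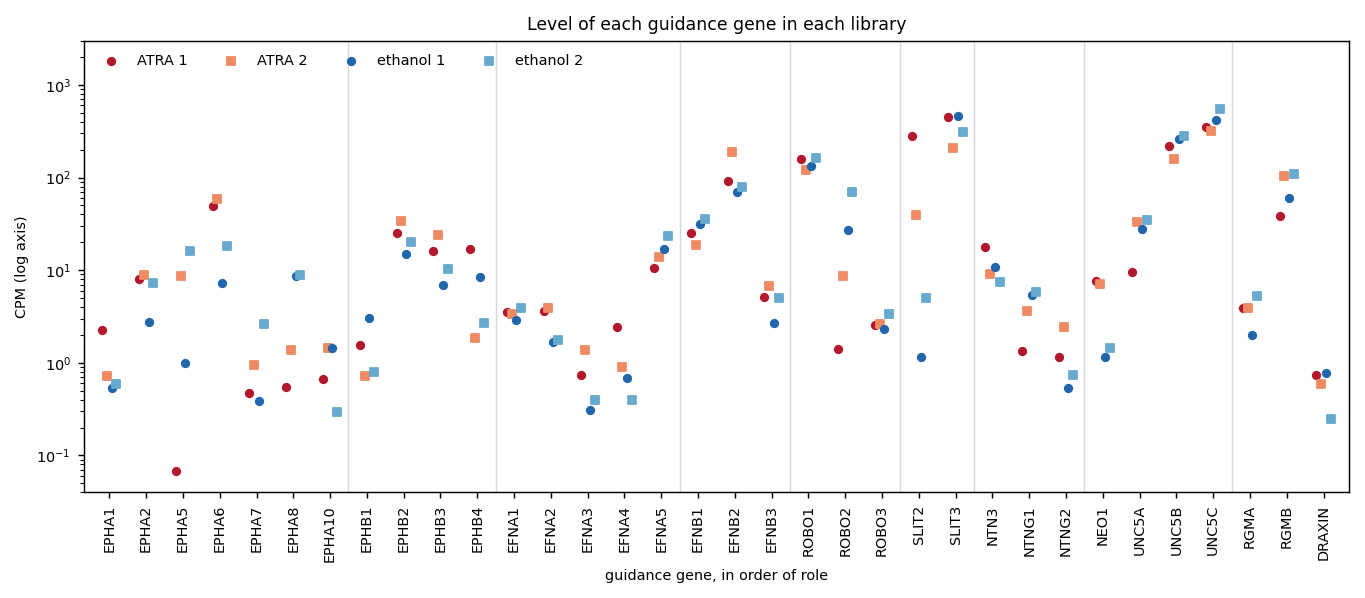
Level in CPM, on a log axis, of the 34 guidance genes that passed the filter, with 1 point per library and grey lines between role groups. EPHA6 and NEO1 have both ATRA points above both ethanol points, ROBO2 and EPHA8 have them below, and EPHA5 splits by title number.

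Per length of the gene's exons, the netrin receptors UNC5C and UNC5B, the Slit ligand SLIT3 and the ephrin EFNB2 had the highest levels, with means over the 4 libraries of 38.4, 33.6, 25.3 and 21.5 CPM per kb. ROBO1 and RGMB followed at 13.2 and 11.7 CPM per kb. Neighbours in this order overlapped between libraries: UNC5C lay between 29.8 and 51.6 CPM per kb, UNC5B between 23.3 and 40.8, SLIT3 between 14.5 and 32.7 and EFNB2 between 14.1 and 37.4. With the longest transcript as the length, SLIT3 moved before UNC5B, and the other places among the first 7 stayed. The lengths come from gene models of a later build than the counts, which makes the order approximate. In these models 12 of the 42 members share exon bases with a gene on the opposite strand, so without the strand setting their reads are uncertain: EPHA1, EPHA4, EPHA5, EPHB1, EPHB2, EPHB4, EFNB2, SLIT3, DCC, UNC5A, UNC5C and RGMB. The largest opposite-strand overlaps were 2682 bases in RGMB and 1313 bases in EFNB2. EFNA3, EFNA4, SLIT1 and RGMA share exon bases with a gene on the same strand.

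At the other end, 8 members did not pass the filter. DCC, the classical receptor for netrin attraction, had 2 reads with ATRA and 1 with ethanol over both libraries, and UNC5D had 1 and 0. SLIT1 had 0 and 2 reads, EPHA3 had 3 and 0, EPHB6 had 4 and 0, and EPHA4 had 5 and 1. Netrin-1, NTN1, the founding ligand of the family, had 11 and 8 reads. NTN4, a netrin of basement membranes, had 39 reads with ATRA and 5 with ethanol, of which 31 were in ATRA 1. A count of 0 over a group allows a level of up to 0.0953 CPM with ATRA and 0.0904 CPM with ethanol, for counting error only. Among the netrin receptors the cells thus had many UNC5C and UNC5B reads and next to none of DCC.

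The promoters of the 4 genes with the largest fitted differences are shown because retinoic acid receptors bind DNA at pairs of short half-sites. The sequences are RefSeq's 250 bases before the first start listed for each gene, in GRCh38.p14. ROBO2 has 2 windows listed, and the first is shown. Half-sites searched on both strands were AGGTCA or GGGTCA or AGTTCA or GGTTCA, and they are in capitals:

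SLIT2, chr4:20251655-20251904, plus strand: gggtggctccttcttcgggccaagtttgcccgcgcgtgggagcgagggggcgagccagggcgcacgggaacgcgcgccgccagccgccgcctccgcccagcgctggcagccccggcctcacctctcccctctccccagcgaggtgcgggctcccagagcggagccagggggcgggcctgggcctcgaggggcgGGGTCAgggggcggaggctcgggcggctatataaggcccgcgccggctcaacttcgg

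ROBO2, chr3:76310630-76310879, plus strand: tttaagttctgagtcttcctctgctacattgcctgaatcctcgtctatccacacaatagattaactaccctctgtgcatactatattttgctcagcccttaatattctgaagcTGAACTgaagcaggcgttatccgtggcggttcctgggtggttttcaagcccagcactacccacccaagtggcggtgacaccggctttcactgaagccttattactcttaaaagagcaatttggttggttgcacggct

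NEO1, chr15:73051652-73051901, plus strand: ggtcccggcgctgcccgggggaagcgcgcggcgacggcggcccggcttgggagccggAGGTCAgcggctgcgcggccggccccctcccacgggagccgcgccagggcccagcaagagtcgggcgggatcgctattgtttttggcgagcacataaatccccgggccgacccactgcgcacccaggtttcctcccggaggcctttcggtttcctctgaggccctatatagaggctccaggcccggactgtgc

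EPHA8, chr1:22563239-22563488, plus strand: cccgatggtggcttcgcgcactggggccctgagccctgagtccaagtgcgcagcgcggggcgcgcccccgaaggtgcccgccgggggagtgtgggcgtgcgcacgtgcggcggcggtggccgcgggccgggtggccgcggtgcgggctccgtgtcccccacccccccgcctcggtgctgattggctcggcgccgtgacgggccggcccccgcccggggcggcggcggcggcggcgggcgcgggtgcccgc

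SLIT2 held GGGTCA on the plus strand, starting 57 bases before the start. NEO1 held AGGTCA on the plus strand, starting 193 bases before it. ROBO2 held AGTTCA on the minus strand, starting 137 bases before the start on the plus strand, and EPHA8 held no match in this window. Among 35 members matched by symbol, 10 had at least 1 half-site in the first window listed for the gene, or 28.6%, against 33.8% of 35116 promoter windows. None of these 35 first windows had 2 half-sites in the same direction spaced by 5 or by 2 bases, the spacings of classical response elements. Of all windows, 0.0740% and 0.0313% did. Further windows of the members were counted only among all windows. A match is a description of the letters and not a site of binding.

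Among the Slit ligands, SLIT2 had the largest fitted difference of the 34 members and SLIT3 had the higher level. SLIT2 was at 283 and 39.7 CPM in ATRA 1 and 2 and at 1.15 and 5.05 CPM in ethanol 1 and 2. Both ATRA libraries were far above both ethanol libraries, but the ATRA libraries also differed from each other by several-fold. The log2 fold change was 5.65 ± 1.17 (SE), with 7.79 within number 1 and 2.94 within number 2, and the adjusted p missed the threshold at 0.0950 (edgeR quasi-likelihood). DESeq2 called it (adjusted p 0.00309) and limma-voom did not (adjusted p 0.162). Nor did edgeR quasi-likelihood with no filter beyond a single read (adjusted p 0.639) or with the title number as a block (adjusted p 0.403). The DESeq2 block called it (adjusted p 0.0157). Without 1 library the fold change ranged from 3.62 to 7.12. SLIT3 was at 456 and 207 CPM with ATRA and 466 and 311 CPM with ethanol. Its groups overlapped, and the log2 fold change was -0.23 ± 0.43 (adjusted p 0.885, edgeR quasi-likelihood).

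The make-up of the Slit ligands differed with the group. Per length, SLIT2 held 47.7% and 21.9% of the Slit pool in ATRA 1 and 2, and 0.363% and 2.33% in ethanol 1 and 2. SLIT3 held the rest apart from traces of SLIT1, with 99.6% and 97.6% in the ethanol libraries. The pool as a whole, at 61.2 and 18.6 CPM per kb with ATRA and 32.8 and 22.4 with ethanol, overlapped between groups.

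Fibroblast genes were looked at beside SLIT2. COL3A1, a fibrillar collagen, was at 112 and 27.7 CPM with ATRA and 0.539 and 1.09 CPM with ethanol, and so was also highest in ATRA 1. COL1A1 was at 23.0 and 4.91 CPM with ATRA against 0 and 0.644 CPM. LUM, which encodes the matrix proteoglycan lumican, lay the other way, at 13.7 and 21.8 CPM with ATRA and 39.8 and 126 CPM with ethanol (log2 -2.22 ± 0.58, adjusted p 0.145, edgeR quasi-likelihood). Of the 9 fibroblast and mesenchymal markers, 7 passed the filter: COL3A1 was called higher (log2 6.36 ± 0.85, adjusted p 0.0459, edgeR quasi-likelihood), COL1A1 and THY1 had positive fold changes, and LUM, DCN, PDGFRB and TWIST1 had negative ones. DCN, THY1, TWIST1 and PDGFRB were abundant, between 40.9 and 310.0 CPM over all libraries, while COL1A2 and PRRX1 stayed under 1 CPM in every library. The list's sum overlapped between groups, at 479 and 663 CPM with ATRA and 469 and 783 CPM with ethanol. The part of these genes in the SLIT2 values was not tested.

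Of the Robo receptors, ROBO2 was lower in both ATRA libraries and ROBO1 overlapped between groups. ROBO2 was at 1.42 and 8.61 CPM in ATRA 1 and 2, against 27.3 and 70.6 CPM in ethanol 1 and 2. The groups did not overlap, and within each group the library numbered 2 was the higher. The log2 fold change was -3.28 ± 0.88, with -4.15 within number 1 and -3.02 within number 2 (adjusted p 0.152, edgeR quasi-likelihood). DESeq2 called it lower (adjusted p 0.000306) and limma-voom did not (adjusted p 0.136). Without 1 library the fold change ranged from -5.12 to -2.41. ROBO1, the receptor with the highest level per length of the 3, was at 157 and 119 CPM with ATRA and 135 and 161 CPM with ethanol. Its log2 fold change was -0.10 ± 0.26 (adjusted p 0.928, edgeR quasi-likelihood), and its sign turned without ATRA 2 or ethanol 2. ROBO3, known for switching axons from attraction to repulsion at the midline, lay between 2.31 and 3.37 CPM in all 4 libraries.

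Per length, ROBO2 held 0.572% and 4.36% of the Robo pool with ATRA and 11.4% and 21.7% with ethanol, and ROBO1 held at least 75.9% in every library. The ratio of ROBO2 to ROBO1 was 0.00590 and 0.0471 with ATRA and 0.132 and 0.286 with ethanol, and the ratio of SLIT2 to SLIT3 was 0.911 and 0.281 against 0.00364 and 0.0238. Both ratios separated the groups. A permutation test of 2 against 2 libraries cannot reach a p under 0.05, so none is given.

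**Figure D2:**
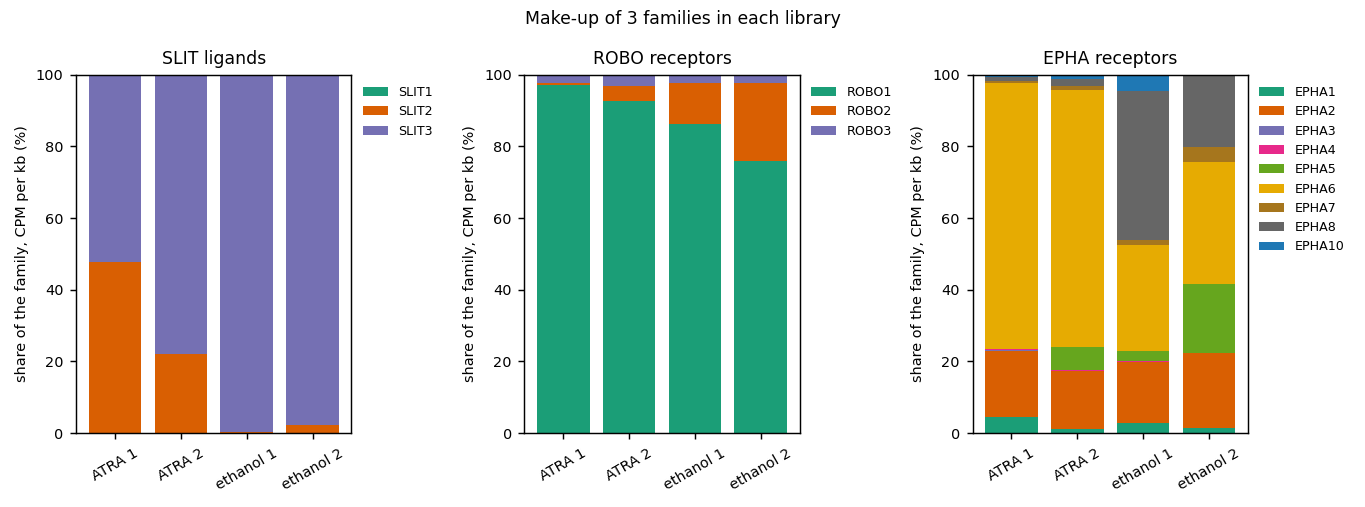
Share of each gene in the summed level per length (CPM per kb, in percent) of the SLIT ligands, ROBO receptors and EPHA receptors, with 1 bar per library. SLIT2 takes 47.7% and 21.9% of the Slit pool with ATRA and under 3% with ethanol, and EPHA6 takes 74.2% and 71.6% of the EPHA pool with ATRA against 29.7% and 34.0%.

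Among the EPHA receptors, EPHA6 was higher and EPHA8 lower in both ATRA libraries. EPHA6, a receptor of the nervous system, was at 49.3 and 59.2 CPM with ATRA and at 7.31 and 18.0 CPM with ethanol. The ATRA libraries were close to each other, and the ethanol libraries lay well below them and further apart. EPHA6 had a log2 fold change of 2.09 ± 0.46, with 2.73 within number 1 and 1.71 within number 2 (adjusted p 0.106, edgeR quasi-likelihood). It was called by DESeq2 (adjusted p 0.000983) and not by limma-voom (adjusted p 0.0941). In the 4 fits that left out 1 library, the fold change lay between 1.54 and 2.91.

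EPHA8, an EPHA receptor of the developing brain, was at 0.542 and 1.38 CPM with ATRA and at 8.70 and 8.87 CPM with ethanol. The ethanol libraries were nearly equal, and both ATRA libraries lay several-fold below them. Its log2 fold change was -3.18 ± 0.60, with -3.73 within number 1 and -2.58 within number 2. It had the smallest adjusted p of the members, 0.0811 (edgeR quasi-likelihood). It was called by DESeq2 (adjusted p 4.47e-05) and not by limma-voom (adjusted p 0.0800). In the 4 fits without 1 library, the fold change lay between -4.01 and -2.68.

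Per length, EPHA6 held 74.2% and 71.6% of the EPHA pool with ATRA and 29.7% and 34.0% with ethanol. EPHA8 held 0.958% and 1.95% with ATRA and 41.5% and 19.6% with ethanol. EPHA2, a receptor of epithelial and many tumour cells, kept a share between 16.1% and 20.8% in all 4 libraries. Its level was 8.13 and 8.79 CPM with ATRA and 2.77 and 7.28 CPM with ethanol (log2 0.74 ± 0.55, adjusted p 0.614, edgeR quasi-likelihood). The summed EPHA level was 10.6 and 13.1 CPM per kb with ATRA and 3.91 and 8.43 with ethanol, which did not overlap. Of this sum, EPHA6 alone made up 7.84 and 9.40 CPM per kb with ATRA and 1.16 and 2.87 with ethanol. The sum therefore does not describe the family as a whole.

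EPHA5 divided the libraries by title number more than by treatment. It was at 0.0677 CPM in ATRA 1, a single read, and 1.00 CPM in ethanol 1, against 8.61 CPM in ATRA 2 and 16.1 CPM in ethanol 2. The log2 difference between numbers 2 and 1 was 5.51 with ATRA and 3.85 with ethanol, while that between treatments was -0.98 ± 1.70 (adjusted p 0.873, edgeR quasi-likelihood). Its fold change ran from -6.86 without ATRA 2, where it was called (adjusted p 2.03e-05, edgeR quasi-likelihood), to 2.14 without ethanol 2. Within numbers 1 and 2 the log2 difference of ATRA over ethanol was -2.55 and -0.89, lower with ATRA in both. With the title number as a block the log2 fold change was -1.32 and was not called (adjusted p 0.0975, edgeR quasi-likelihood). The groups overlapped and the labels do not say what the numbers share, so no direction is given for EPHA5. EPHA1, EPHA7 and EPHA10 stayed under 3 CPM in every library, with log2 fold changes from -1.09 to 1.36 and adjusted p from 0.491 to 0.936 (edgeR quasi-likelihood).

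The EPHB receptors bind the B ephrins and, like those, act in cell sorting and axon repulsion. EPHB3, the EPHB receptor with the highest level per length, was at 16.2 and 24.0 CPM with ATRA and at 6.85 and 10.3 CPM with ethanol. EPHB2 was at 25.1 and 33.7 CPM with ATRA and at 14.9 and 20.2 CPM with ethanol. In both genes the groups did not overlap and the library numbered 2 was the higher of each group. The log2 fold change of EPHB3 was 1.23 ± 0.38, with 1.23 and 1.21 within numbers 1 and 2 (adjusted p 0.199, edgeR quasi-likelihood). That of EPHB2 was 0.74 ± 0.31, with 0.75 and 0.74 (adjusted p 0.329, edgeR quasi-likelihood). For both genes the differences within the 2 numbers were almost the same. The summed EPHB level was 8.46 and 8.40 CPM per kb with ATRA and 4.45 and 4.43 with ethanol. These near-equal sums hid opposite shifts by title number. EPHB4 held 31.0% and 3.43% of the sum in ATRA 1 and 2, and 29.3% and 9.57% in ethanol 1 and 2. EPHB3 held 42.2% and 63.1% in ATRA 1 and 2, and 34.0% and 51.4% in ethanol 1 and 2.

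EPHB4, known from vein endothelium, divided the libraries by title number in the opposite direction to EPHA5. It was at 16.9 and 8.39 CPM in ATRA 1 and ethanol 1 and at 1.85 and 2.73 CPM in ATRA 2 and ethanol 2. Its log2 fold change was 0.76 ± 1.03 (adjusted p 0.827, edgeR quasi-likelihood), with opposite signs within the numbers, 1.00 and -0.53. EPHB1 was also higher in the libraries numbered 1, at 1.56 and 3.08 CPM against 0.718 and 0.793 CPM (log2 fold change -0.75 ± 0.85). Shifts by number of over 1 on the log2 scale, in the same direction in both groups, were seen in 3 of the 34 members, namely EPHA5, EPHB4 and ROBO2, or 8.82%, against 9.26% of all genes tested.

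**Figure D3:**
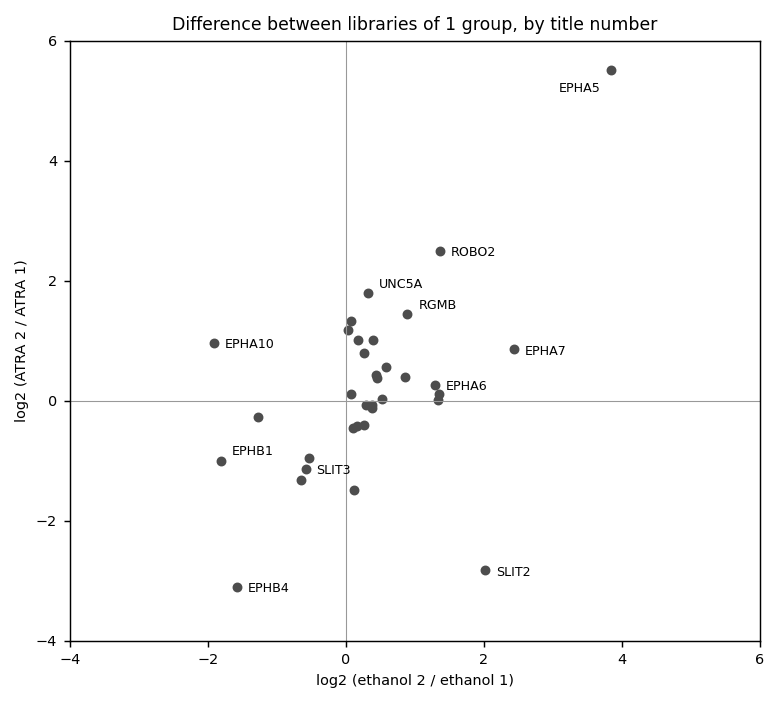
Log2 difference between the libraries numbered 2 and 1 of each group, ethanol on the x axis and ATRA on the y axis, with 1 point per guidance gene that passed the filter. EPHA5 lies at 3.85 and 5.51, EPHB4 at -1.58 and -3.10, and SLIT2 has opposite signs in the 2 groups, 2.02 and -2.83.

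Of the ephrins, EFNB2, the ligand that marks arteries and also acts in neural crest migration, had the highest level per length. It was at 92.7 and 188 CPM with ATRA and at 70.5 and 80.1 CPM with ethanol. Both ATRA libraries were above both ethanol libraries, ATRA 1 by little. The log2 fold change was 0.90 ± 0.37, with 0.39 and 1.23 within numbers 1 and 2 (adjusted p 0.324, edgeR quasi-likelihood), and it was called without ATRA 1 (log2 1.31, adjusted p 0.0470, edgeR quasi-likelihood). Without ATRA 2 it was 0.29. EFNB1, a ligand of the same class, lay the other way, at 24.9 and 18.6 CPM with ATRA and 31.5 and 35.3 CPM with ethanol (log2 -0.62 ± 0.28, adjusted p 0.364, edgeR quasi-likelihood). The ratio of EFNB2 to EFNB1 per length was 2.46 and 6.66 with ATRA and 1.48 and 1.50 with ethanol, so the balance between the 2 ligands was further towards EFNB2 in both ATRA libraries. EFNB3 lay between 2.69 and 6.70 CPM.

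Among the A ephrins, EFNA2 had the highest mean level per length of exons over the 4 libraries, just above EFNA5. With the longest transcript as the length, EFNA5 came before EFNA2, at 3.04 against 2.89 CPM per kb. The 2 genes differed in opposite directions. EFNA2 was at 3.59 and 3.89 CPM with ATRA and at 1.69 and 1.78 CPM with ethanol. EFNA5, a ligand known for mapping of visual axons, was at 10.6 and 13.9 CPM with ATRA and at 17.1 and 23.3 CPM with ethanol. Neither gene's groups overlapped, and the libraries of each group were close to each other for EFNA2. The log2 fold changes were 1.10 ± 0.50 for EFNA2 and -0.72 ± 0.33 for EFNA5 (adjusted p 0.365 and 0.368, edgeR quasi-likelihood). Per length, EFNA5 held 45.1% and 51.1% of the A ephrin pool with ethanol and 19.9% and 26.2% with ATRA, while EFNA2 held 26.9% and 23.4% with ethanol and 40.4% and 44.1% with ATRA.

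EFNA3 and EFNA4 were low, under 2.5 CPM in every library, and both had log2 fold changes near 1.6, namely 1.56 ± 0.76 and 1.62 ± 0.79 (adjusted p 0.393 and 0.394, edgeR quasi-likelihood). Each shares exon bases with an annotated read-through gene on the same strand, so their reads are uncertain. EFNA1 overlapped between groups, with means of 3.44 ± 0.122 CPM with ATRA and 3.40 ± 0.664 CPM with ethanol (SD, n = 2 each).

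**Figure D4:**
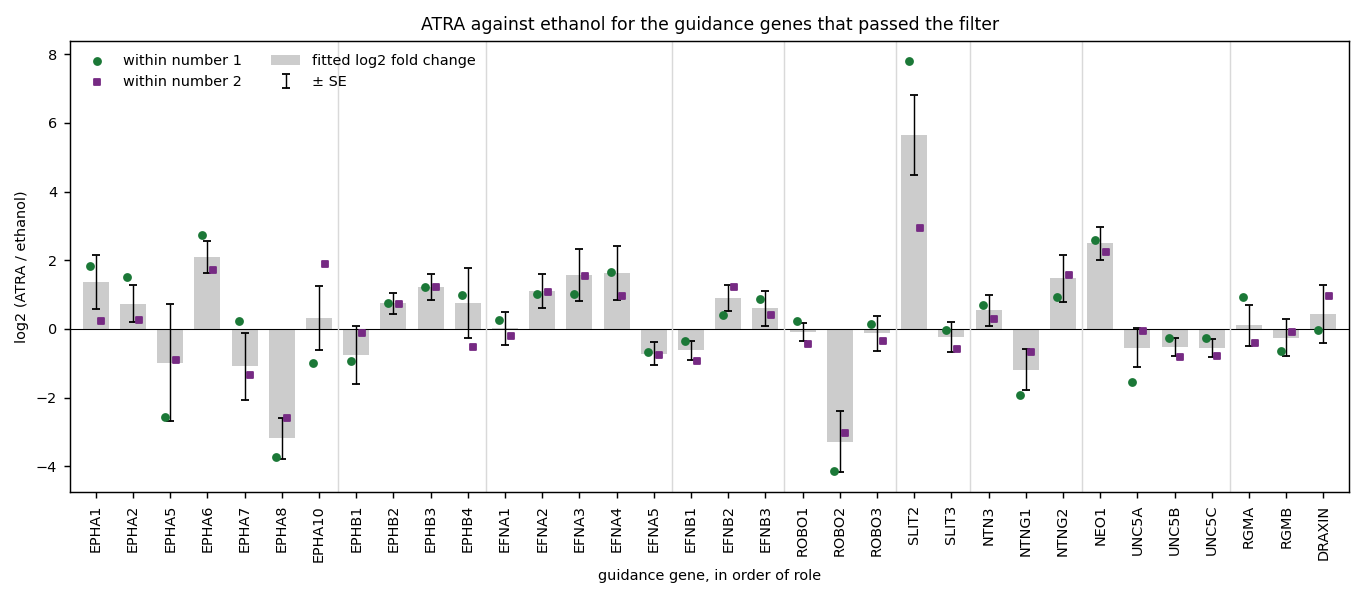
Log2 difference of ATRA over ethanol for the 34 guidance genes that passed the filter: grey bars give the fitted log2 fold change with its SE, and points the difference within libraries of the same title number. SLIT2 at 5.65, NEO1 at 2.50 and EPHA6 at 2.09 lie highest, and ROBO2 at -3.28 and EPHA8 at -3.18 lowest.

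Of the netrin receptors, NEO1 was higher in both ATRA libraries and UNC5B and UNC5C were lower, none past the main test. NEO1, the neogenin receptor for netrins and RGM proteins, was at 7.59 and 7.18 CPM with ATRA and at 1.15 and 1.44 CPM with ethanol. The libraries of each group nearly coincided and the groups lay far apart, in 232 reads with ATRA against 44 with ethanol. NEO1 had a log2 fold change of 2.50 ± 0.48, with 2.59 and 2.23 within numbers 1 and 2 (adjusted p 0.0830, edgeR quasi-likelihood). DESeq2 called it (adjusted p 0.000834). In the fits without 1 library the fold change stayed between 2.31 and 2.68 and was called without ethanol 2 alone (adjusted p 0.0230, edgeR quasi-likelihood). With DCC next to absent, NEO1 made up at least 96.1% of the level per length of the 2 related receptors in every library.

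UNC5C and UNC5B, receptors for netrin repulsion that are also studied as dependence receptors, were abundant and lower in both ATRA libraries. UNC5C was at 348 and 319 CPM with ATRA and at 422 and 551 CPM with ethanol. UNC5B was at 219 and 160 CPM with ATRA and at 261 and 279 CPM with ethanol. The groups did not overlap in either gene, but the differences were small. The log2 fold changes were -0.54 ± 0.26 and -0.51 ± 0.26 (adjusted p 0.384 and 0.425, edgeR quasi-likelihood), and both genes differed less within number 1 (-0.28 and -0.25) than within number 2 (-0.79 and -0.81). UNC5A was at 9.48 and 33.2 CPM with ATRA and at 27.7 and 34.8 CPM with ethanol. ATRA 1 stood apart from the other 3 libraries, and the log2 fold change of -0.55 ± 0.57 (adjusted p 0.745, edgeR quasi-likelihood) became -1.73 and was called without ATRA 2 (adjusted p 0.0139, edgeR quasi-likelihood), and turned to 0.076 without ATRA 1.

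The netrin ligands themselves were low apart from NTN3. NTN3 was at 17.7 and 9.09 CPM with ATRA and at 10.9 and 7.48 CPM with ethanol, which overlap (log2 0.55 ± 0.45, adjusted p 0.660, edgeR quasi-likelihood), and it held at least 82.9% of the netrin level per length in every library. The netrin-G genes, whose lipid-anchored products bind NGL adhesion proteins and not DCC, lay in opposite directions. NTNG1 was at 1.35 and 3.59 CPM with ATRA and at 5.47 and 5.80 CPM with ethanol (log2 -1.18 ± 0.60, adjusted p 0.419, edgeR quasi-likelihood). NTNG2 was at 1.15 and 2.45 CPM with ATRA and at 0.539 and 0.743 CPM with ethanol (log2 1.47 ± 0.69, adjusted p 0.374, edgeR quasi-likelihood).

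The RGM proteins are lipid-anchored ligands of neogenin and co-receptors for bone morphogenetic proteins. RGMB was at 38.4 and 104 CPM with ATRA and at 59.4 and 111 CPM with ethanol. The library numbered 1 was the lower in both groups, and the groups overlapped (log2 -0.25 ± 0.53, adjusted p 0.899, edgeR quasi-likelihood). RGMA lay between 2.00 and 5.25 CPM and DRAXIN, a secreted antagonist of netrin signalling, between 0.248 and 0.770 CPM.

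Counted by the separation of the groups, 13 of the 34 members had both ATRA libraries above both ethanol libraries and 7 had them below, or 38.2% and 20.6%, against 23.8% and 21.7% of all genes tested. The differences within numbers 1 and 2 had the same sign in 26 members, 14 higher and 12 lower, and opposite signs in 8. These are 41.2%, 35.3% and 23.5% of the members that passed the filter, near the 38.3%, 35.3% and 26.3% of all genes tested. By role, the higher ones were 3 of 7 EPHA receptors, 2 of 4 EPHB receptors, 3 of 5 A ephrins, 2 of 3 B ephrins, SLIT2, NTNG2 and NEO1. The lower ones were EPHA8, EFNA5, EFNB1, ROBO2, NTNG1, UNC5B and UNC5C.

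Other genes of the same pathways gave no calls in the main edgeR fit either. Of 12 further ligands and receptors, 7 passed the filter, and 0 were called higher and 0 lower (edgeR quasi-likelihood). At an unadjusted p under 0.05, 1 was higher and 1 lower, or 14.3% each, against 9.43% and 6.49% of all genes. DESeq2 called 1 of 6 lower, FLRT3, and called 2.89% of all genes lower. The limma-voom fit called 0 of these genes and 0.265% of all genes. With so few genes tested, 1 call is not a result about the list. FLRT3, a membrane protein that binds UNC5 receptors and ROBO1, was at 4.61 and 9.45 CPM with ATRA and at 26.6 and 48.0 CPM with ethanol (log2 -2.40 ± 0.49, adjusted p 0.0913, edgeR quasi-likelihood). Its relative FLRT2, the one with a higher level at an unadjusted p under 0.05 (adjusted p 0.199, edgeR quasi-likelihood), had 34 reads in the ATRA libraries and 2 in the ethanol libraries (ratio of levels 17.9, 95% exact interval for counting error 4.59 to 154). LRRC4, which encodes an NGL protein, was at log2 0.94 ± 0.55 and DAG1, which encodes the Slit-binding dystroglycan, at -0.31 ± 0.29.

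Of 54 intracellular effectors of Eph, Robo and DCC signalling, 51 passed the filter and 0 were called higher and 0 lower (edgeR quasi-likelihood), with 10 higher and 2 lower at an unadjusted p under 0.05, or 19.6% and 3.92%, against 9.43% and 6.49% of all genes. DESeq2 called 6 of 50 higher and 2 lower, or 12% and 4%, against 5.03% and 2.89% of all genes, and the 4 genes named here were among them. The limma-voom fit called 0. Their median log2 fold change was 0.34 against 0.011 for all genes. TRIO, a guanine nucleotide exchange factor for RAC1 and RHOA that acts below DCC, was at 1574 and 969 CPM with ATRA and at 332 and 280 CPM with ethanol. LIMK1, a kinase that inactivates cofilin, was at 106 and 87.0 CPM with ATRA and at 35.9 and 32.8 CPM with ethanol. In both genes the groups lay far apart, with log2 fold changes of 2.06 ± 0.33 and 1.49 ± 0.25 (adjusted p 0.0655 and 0.0657, edgeR quasi-likelihood). TRIM9, a ubiquitin ligase that binds DCC, was at -1.24 ± 0.25 (adjusted p 0.0913, edgeR quasi-likelihood). SRGAP2, a GTPase-activating protein of the family that binds Robo receptors, was at -1.29 ± 0.33 (adjusted p 0.140, edgeR quasi-likelihood).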

How the data were processed

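Per the submitters' processing notes, STAR 2.5.2b, featureCounts 1.5.1 and the human build hg19 were named; for the annotation, strandedness and multi-mapping reads, the setting is not given in the sources used here. The authors deposited 1 column of raw counts per library, with genes named by symbol. Libraries were grouped by their titles.

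Counts were fitted with edgeR 4.0.16 in R 4.3.3: filterByExpr with a minimum count of 10, TMM scaling, then glmQLFit (robust) and glmQLFTest with treatment as the sole term, two-sided. p-values were adjusted by Benjamini-Hochberg over all 18900 genes tested, with a threshold of 0.05. Standard errors were obtained from the fold change and the F statistic. CPM uses TMM-scaled library sizes, and differences within title numbers use log2 CPM with a prior count of 2. Levels per kb divide CPM by the merged exon length of GENCODE 29 gene models (GRCh38), used for length and neighbours only. The zero limit is 3 counts over a group. DESeq2 1.42.0 and limma 3.58.1 (voom) were alternatives, as were other scalings and filters, a fit without mitochondrially encoded genes, the title number as a block, and fits without each library.

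The members and lists were chosen with earlier results of these data known. Each library's values are given for members with an adjusted p under 0.05 in any fit, members with an unadjusted p under 0.05, and the member of each role group with the highest level per length; others were added for contrast after their values were seen. From other pathway lists, the 2 genes with the smallest p in each direction are named. Neuroblastoma, endothelial, fibroblast and cycling cell markers are described in the report. Summed levels of the other marker lists were 20.6 and 7.12 CPM with ATRA and 3.54 and 1.78 CPM with ethanol for 6 immune genes (5 under 1 CPM on average, 2 with no read), 18.0 and 22.4 against 7.93 and 12.4 CPM for 8 Schwann cell precursor genes (4 under 1 CPM, 2 with no read), and 12.4 and 21.4 against 6.78 and 6.49 CPM for 5 epithelial genes; their part in the results was not tested. The procedure was tested on simulated counts. At a simulated dispersion (spread between libraries beyond counting error) of 0.1, it recovered 2% of 2-fold and 100% of 8-fold differences. At 0.01 it recovered 87% and 100%. False calls were 3 and 9. The common dispersion of these data was 0.143, above both settings, so a member not called is not shown to be unchanged. The simulation also gave all genes the same dispersion and placed differences in genes over 1 CPM alone. In these data SLIT2 (50.3-fold higher), ROBO2 (9.70-fold lower) and EPHA8 (9.04-fold lower) were not called in the main fit. The recovery of 8-fold differences therefore does not carry over to the members.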

Additional observations from a re-analysis of the deposited data

How the results depend on the processing

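No scaling, filter or tool with all 4 libraries turned the direction of any of the 17 guidance genes given by library under the stated rule. Of 238 alternative values for these genes, 187 kept both direction and call, 42 kept the direction and became called, and 9 changed sign, all 9 in fits without 1 library. Leaving out libraries, the log2 fold change ranged from -6.86 to 2.14 for EPHA5, -0.32 to 0.077 for ROBO1, -0.91 to 0.23 for SLIT3, -0.011 to 0.94 for NTN3, -1.73 to 0.076 for UNC5A and -1.16 to 0.28 for RGMB. In these fits a group with 1 library is assumed to vary like the other group.

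The number of genes called, 132, became 1821 when all genes with a read were tested, 1380 with DESeq2, 50 with limma-voom and 870 to 1442 without a library. Of the members, 2 were called higher and 2 lower in that fit, 3 and 2 with DESeq2, and 1 to 3 higher and 1 to 4 lower without a library. Other scalings, a minimum count of 30 and the fit without mitochondrially encoded genes called 0 members and 0.624% to 0.972% of all genes. The cause was not tested.

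The title number was also entered as a replicate block. No label ties the 2 numbers to a culture or day, so what libraries of the same number have in common is not known. Deviations from the group mean correlated at 0.63 across 18900 genes between ATRA 1 and ethanol 1. The replicate block called 4098 genes with edgeR and 2727 with DESeq2, and of the members 5 higher and 3 lower with edgeR and 5 and 2 with DESeq2 (8.95% and 7.03% of all genes). Under the edgeR block EPHA6, NEO1, EPHB2, EPHB3 and EFNB2 were called higher and EPHA8, ROBO2 and EFNA5 lower, against 12.3% and 9.38% of all genes.

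Depth limits the genes with few reads, among them DCC, NTN1 and UNC5D.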
